A study of Mus musculus with 26 samples.

Results

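The genes described here carry out the relaxation of small arteries by the endothelium. They are Nos3, Gucy1a1, Gucy1b1, Prkg1, Pde5a, Kcnn3, Kcnn4, Ptgis, Ptgs1 and Cav1, 10 of the 21031 genes in the deposited normalized table, and were taken by symbol. The table's column of Ensembl-derived symbols held 8 of the 10. Gucy1a1 and Gucy1b1 stand in it under their older names Gucy1a3 and Gucy1b3, and were matched by the second symbol column of the same table. All 10 passed the filter on low counts in each of the 4 comparisons.

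The study sequenced polyA RNA of mesenteric arteries, the vessels that supply the gut, from male mice of 8 weeks, in 26 libraries. It compared mice that lack pannexin 1 (Panx1 KO, 3 libraries) with WT mice (3 libraries), and mice with a substitution in Panx1, the gene of an ATP-releasing membrane channel, with controls of the same line. The substitution lines were Y198F+/+ with Y198F-/- controls (3 libraries each), S205A+/+ with S205A-/- controls (4 each) and Y308F+/+ with Y308F-/- controls (3 each). The controls are described as littermates or wild-type mice, and the strain is not given in the sources used here. The labels do not tie a library to a single animal, so p-values measure only the spread between these libraries.

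Total counts ran from 14895969 to 23617902 per library. Panx1 checked the knockout, with 61 to 96 counts in the WT libraries and 11 to 27 in the KO libraries, with a log2 fold change in edgeR of -2.17 (SE 0.388, adjusted p = 0.250). All 10 endothelial and all 10 smooth muscle markers were detected, and the summed endothelial markers ran from 1404 CPM (counts scaled to the size of the library) in S205A control 1 to 11159 in S205A control 2. Y308F control 1 reached 11073 CPM, and the other 23 libraries lay between 3610.3 and 8409 CPM. Smooth muscle markers summed to 23402 to 47932 CPM and were highest in S205A control 1. Among markers of other tissues the median count was 0 for Th and Dbh of sympathetic neurons, for Cpa1, Prss2 and Pnlip of pancreatic acini and for Epcam, Fabp2 and Cdh17 of gut epithelium. Other markers of these lists were detected: a median count of 10 or more was reached by 3 of 6 neuronal markers (summed to 32.7 to 65.8 CPM), 1 of 5 acinar markers (0.176 to 5.55 CPM) and 2 of 5 markers of gut epithelium (8.96 to 21.4 CPM). Library names divided the libraries a second way: in 9 of them (controls 1 to 3 and mutants 2 to 4 of the S205A line, and all 3 mutants of the Y198F line) the number begins with 22. These 9 are called the 22 series here, and the labels do not say what the number stands for. Ribosomal RNA genes took 0.0831% to 0.139% of the counts in the 22 series and 2.32% to 7.09% in the other 17 libraries. In the Y198F line every mutant and no control belongs to the 22 series, so there the mutation and the series cannot be told apart.

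Endothelial cells relax the muscle around them in 3 ways. Nitric oxide made by the endothelial synthase crosses to the muscle, binds soluble guanylate cyclase and raises cyclic GMP, which acts through a kinase until a phosphodiesterase breaks it down. Calcium-activated potassium channels of the endothelium hyperpolarize the cell, and this spreads to the muscle through gap junctions, a route of special weight in small mesenteric arteries. Prostacyclin, made from arachidonic acid by a cyclooxygenase and then a synthase, relaxes the muscle through cyclic AMP. Caveolae, the membrane pits in which caveolin-1 holds and inhibits the nitric oxide synthase, join these routes at the cell surface.

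The start regions of 4 members are printed because the results turn on them: Kcnn3 and Kcnn4, the pair of potassium channels whose ratio set the library series apart, and Gucy1a1 and Gucy1b1, neighbouring genes whose products form 1 enzyme. Each window holds 250 bases before and 50 after a transcription start, 5′ to 3′ on the gene's strand, from RefSeq on GRCm38.p6. A window was found for 8 of the 10 members. Capitals mark CACCC, the core bound by Krüppel-like factors, GGGCGG, the GC box, and AGGAA, an ETS core, searched on both strands. Matches of CACCC and GGGCGG can share bases, but none overlap in these windows.
Kcnn3, chr3:89519914-89520213, plus strand: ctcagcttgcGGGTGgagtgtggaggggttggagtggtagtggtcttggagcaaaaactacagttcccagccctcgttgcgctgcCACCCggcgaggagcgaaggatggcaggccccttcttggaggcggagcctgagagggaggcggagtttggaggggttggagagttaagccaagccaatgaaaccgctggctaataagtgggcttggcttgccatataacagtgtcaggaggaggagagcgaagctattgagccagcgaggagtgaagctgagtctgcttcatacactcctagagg
Kcnn4, chr7:24370013-24370312, plus strand: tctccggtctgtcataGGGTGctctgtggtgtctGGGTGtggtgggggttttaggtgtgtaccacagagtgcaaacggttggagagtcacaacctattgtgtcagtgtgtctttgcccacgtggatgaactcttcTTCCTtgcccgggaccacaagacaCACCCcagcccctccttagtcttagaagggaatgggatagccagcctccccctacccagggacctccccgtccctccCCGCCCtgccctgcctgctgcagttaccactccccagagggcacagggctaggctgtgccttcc
Gucy1a1, outer of 2 starts, chr3:82145601-82145900, minus strand: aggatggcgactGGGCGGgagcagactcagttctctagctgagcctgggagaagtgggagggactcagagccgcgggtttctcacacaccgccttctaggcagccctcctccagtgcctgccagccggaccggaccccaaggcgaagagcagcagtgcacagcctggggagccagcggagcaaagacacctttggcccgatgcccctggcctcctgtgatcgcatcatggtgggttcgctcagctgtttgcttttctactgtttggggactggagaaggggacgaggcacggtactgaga
Gucy1b1, chr3:82074662-82074961, minus strand: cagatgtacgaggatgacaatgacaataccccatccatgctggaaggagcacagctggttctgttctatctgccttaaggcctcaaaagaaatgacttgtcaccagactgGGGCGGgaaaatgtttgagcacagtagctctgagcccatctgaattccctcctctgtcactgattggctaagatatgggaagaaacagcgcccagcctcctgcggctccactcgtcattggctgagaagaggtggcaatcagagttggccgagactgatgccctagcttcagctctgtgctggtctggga
The Kcnn4 window held 3 CACCC, 1 GGGCGG and 1 AGGAA, and the Kcnn3 window held 2 CACCC and neither of the others. The printed Gucy1a1 and Gucy1b1 windows each held 1 GGGCGG and neither of the others. The window at the inner Gucy1a1 start, chr3:82145024-82145323, differed from both, with 3 CACCC, 1 AGGAA and no GGGCGG. Over 32851 promoter windows of the same length, 57.5% held CACCC, 35.7% held GGGCGG and 66.7% held AGGAA, and each motif occurred in 7 of the 11 windows of members. A match is a run of letters and not a shown binding site.

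Levels were compared between genes as CPM per kilobase of merged exons, given as the median of the 13 control libraries. Cav1, the coat protein of caveolae, stood highest at 139, followed by Ptgis, prostacyclin synthase, at 102 and Nos3 at 56.9. The guanylate cyclase subunits Gucy1a1 and Gucy1b1 lay next at 39.8 and 37.0. Prkg1, the cyclic GMP-dependent kinase, had 13.8, Pde5a, which breaks down cyclic GMP, 12.2, and Ptgs1, cyclooxygenase 1, 12.02. The channel genes were lowest, with 6.33 for Kcnn3 and 4.404 for Kcnn4. Of the neighbours in this order, the ranges over the 13 control libraries were apart for 1 pair. This was Gucy1b1 (26.9 to 45.1) and Prkg1 (9.80 to 18.7), and the other pairs overlapped. With the length of the canonical transcript in place of merged exons, Kcnn3 had 22.9 and stood above Prkg1 (21.7), Kcnn4 had 17.8, above Pde5a (17.2) and Ptgs1 (16.3), and Gucy1a1 had 88.7, above Nos3 (68.5).

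**Figure D1:**
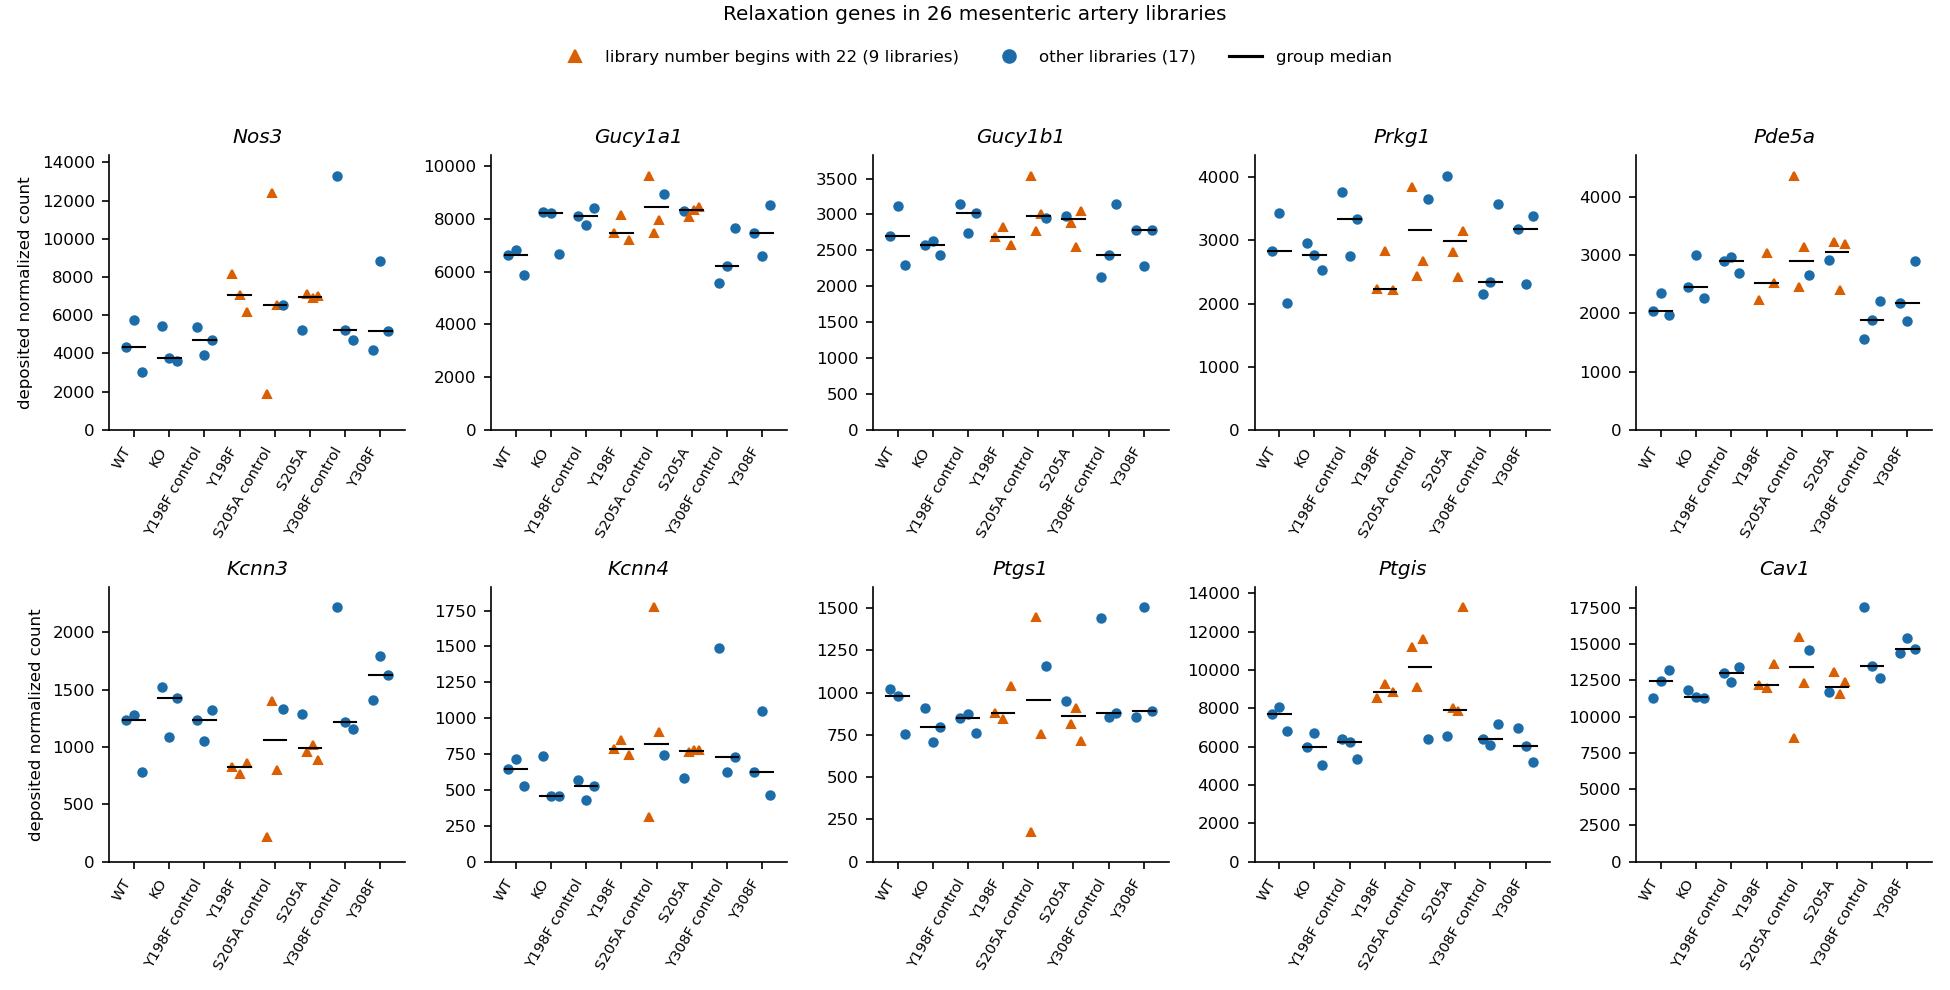
Deposited normalized counts (axes from 0) of the 10 genes in each of the 26 libraries, arranged by group, with triangles for the 22 series, circles for the other libraries and lines at the group medians. Nos3, Kcnn3, Kcnn4 and Ptgs1 span the widest ranges, with their lowest values in S205A control 1, while Gucy1a1 stays within a 1.73-fold range.

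The guanylate cyclase subunits varied least, 1.73-fold for Gucy1a1 and 1.67-fold for Gucy1b1 between the highest and lowest of the 26 libraries. Prkg1 varied 2.00-fold, Cav1 2.05-fold, Ptgis 2.62-fold and Pde5a 2.78-fold. The spread was widest in Kcnn3 (10.3-fold), Ptgs1 (8.45-fold), Nos3 (7.11-fold) and Kcnn4 (5.67-fold). S205A control 1, the library with the lowest endothelial markers, was the lowest library for Nos3, Kcnn3, Kcnn4, Ptgs1 and Cav1 and the highest for Gucy1a1, Gucy1b1 and Pde5a. In the 17 libraries outside the 22 series, which leave that library out, the SD of log2 CPM of Nos3 stood at percentile 92.1 of 12911 expressed genes, Kcnn4 at 89.3 and Kcnn3 at 75.5. Ptgs1 (70.6), Prkg1 (70.4) and Pde5a (66.4) lay close together there, and Gucy1a1 (44.2), Ptgis (37.1), Cav1 (33.6) and Gucy1b1 (32.5) were lower.

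Nos3 (ENSMUSG00000028978, GRCm39 chr5:24569787-24589475, plus strand) encodes the endothelial nitric oxide synthase. Normalized counts, which the authors made by dividing counts by a size factor per library, were 4362, 5775 and 3053 in WT and 5423, 3768 and 3582 in KO, so these groups overlapped. In the Y198F line they were 5360.2, 3927 and 4686 in the controls and 8154, 7071 and 6154 in the mutants, with every mutant above every control. S205A controls had 1871, 12397, 6548 and 6537 and S205A mutants 5212, 7129, 6925 and 6991. The controls of that line therefore held both the lowest Nos3 library of the series and one of its highest, and enclosed all 4 mutants. Y308F controls had 13304, 5241 and 4696 and Y308F mutants 4184, 8855 and 5158, again with overlap. Exons of Nos3 overlap those of Atg9b on the other strand. Atg9b counts were 0.158% to 2.28% of those of Nos3.

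Gucy1a1 (ENSMUSG00000033910, GRCm39 chr3:81999733-82053216) and Gucy1b1 (ENSMUSG00000028005, chr3:81939312-81982022) encode the alpha and beta subunits of soluble guanylate cyclase, the receptor of nitric oxide. They lie on the minus strand of chromosome 3, 17711 bases apart, and Kcnn3 and Pde5a lie on the same chromosome. Gucy1a1 had 6651, 6824 and 5896 normalized counts in WT and 8270.3, 8226 and 6668 in KO. The lowest KO library fell below the highest WT library, so the groups overlapped. The ratio of Gucy1a1 to Gucy1b1 stayed between 2.19 and 3.21 outside the 22 series and between 2.65 and 3.28 within it. Correlations here and below pool libraries of several groups and lines, with no term for either. Differences between groups therefore enter r, rho and the permutation p. Levels of the pair moved together over libraries, with Pearson r = 0.712 (n = 17, permutation p = 0.00206, adjusted over 10 tests 0.00660) and Spearman rho = 0.635 (permutation p = 0.00730, adjusted 0.0365) outside the 22 series. Without the 2 libraries farthest from the median, r was 0.509. Within the 22 series r was 0.789 (n = 9, exact permutation p = 0.0294, adjusted 0.0368) and rho 0.583 (exact permutation p = 0.108, adjusted 0.154), and r fell to 0.262 without the 2 farthest libraries, so that relation rests on them.

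Prkg1 (ENSMUSG00000052920, GRCm39 chr19:30541889-31742479, minus strand) encodes the kinase through which cyclic GMP relaxes muscle. It had 3769.9, 2745 and 3333 normalized counts in the Y198F controls and 2227, 2827 and 2210.4 in the mutants. A single mutant library reached into the control range. Pde5a (ENSMUSG00000053965, GRCm39 chr3:122522594-122653023, plus strand), the cyclic GMP phosphodiesterase that sildenafil blocks, had 2032, 2353 and 1967 in WT and 2452, 3006 and 2266 in KO. A single KO library lay below the highest WT library.

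Kcnn3 (ENSMUSG00000000794, GRCm39 chr3:89427460-89582439, plus strand) encodes the small-conductance channel SK3, and Kcnn4 (ENSMUSG00000054342, chr7:24066915-24086115, plus strand) the intermediate-conductance channel IK1. In the Y198F line Kcnn3 had 1236, 1054 and 1322 normalized counts in the controls and 826, 762 and 862 in the mutants. Kcnn4 went the other way, with 571, 431 and 524 in the controls and 785, 848 and 745 in the mutants. Neither channel's groups overlapped there. In the S205A line Kcnn3 had 214, 1402, 798 and 1330.1 in the controls and 1288, 957, 1017 and 883 in the mutants. Kcnn4 had 312, 1771, 901 and 743 in those controls and 581, 763, 777 and 779.8 in the mutants. For both channels the controls enclosed all mutants. The KO libraries had 1523, 1083 and 1424 normalized counts of Kcnn3 against 1233, 1283 and 784 in WT. In Kcnn4 they had 734, 459 and 459 against 645, 716 and 527. Y308F mutants had 1408, 1795 and 1631 of Kcnn3 against 2216, 1219 and 1155 in their controls, and 624, 1048 and 462 of Kcnn4 against 1490.3, 622 and 728. All of these groups overlapped.

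Ptgs1 (ENSMUSG00000047250, GRCm39 chr2:36120438-36142287, plus strand) encodes cyclooxygenase 1, and Ptgis (ENSMUSG00000017969, chr2:167033725-167083018, minus strand) the synthase that turns its product into prostacyclin. Ptgis had 7695, 8081 and 6795 normalized counts in WT and 5986, 6721 and 5070.2 in KO, with every KO library below every WT library. It had 6396, 6237 and 5366 in the Y198F controls and 8548, 9270.2 and 8849 in the Y198F mutants, with every mutant above every control. S205A controls had 11178, 9097, 11608 and 6399.6 and S205A mutants 6571, 8008, 7865 and 13258. The lowest Ptgis library of either S205A group was the 1 outside the 22 series. Levels of Ptgs1 and Ptgis over libraries outside the 22 series had a Pearson r of 0.113 (n = 17, permutation p = 0.670) and a Spearman rho of 0.127. Within the series r was -0.45 (n = 9, exact permutation p = 0.293), rho -0.60 and r without the 2 farthest libraries -0.69. Ptgs1 is also a platelet gene. The 5 platelet markers summed to 2.86 to 12.3 CPM. Of these, 3 reached a median count of 10 or more, and Gp9 had a median count of 0.

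Cav1 (ENSMUSG00000007655, GRCm39 chr6:17306140-17341451, plus strand) encodes caveolin-1. It ranged from 8557 normalized counts in S205A control 1 to 17525 in Y308F control 1, the libraries with the lowest and one of the highest summed endothelial markers. Between mutants and controls its log2 fold changes ran from -0.09 in KO to 0.03 in Y308F, and none passed.

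In mice without pannexin 1, none of the 10 genes passed the test, edgeR's quasi-likelihood test with Benjamini-Hochberg adjustment over all genes at 0.05. Over all 16193 genes tested, 0.0309% passed, 5 in all, with 1817 at an unadjusted p under 0.05. Ptgis had 5926 ± 827 normalized counts (SD, n = 3) in KO against 7523 ± 660.2 in WT, which is -0.33 on the log2 scale (SE 0.136, adjusted p = 0.421 in edgeR). It was the 1 member of 10 whose groups did not overlap, against 18.6% of all genes tested. An exact permutation test between 3 and 3 libraries cannot go below p = 0.1, the value Ptgis had. Median log2 fold changes of marker lists in KO were -0.05 for endothelium, -0.24 for smooth muscle, -1.25 for adipocytes and -0.11 for fibroblasts. They were -0.47 for lymphatic endothelium, 0.51 for macrophages, 0.75 for lymphoid cells and -0.08 for platelets, against 0.01 for all genes. No marker of these lists was called, and their part in the result was not tested. Pde5a and Gucy1a1 had log2 fold changes of 0.29 (SE 0.130, edgeR adjusted p = 0.444) and 0.27 (SE 0.129, adjusted p = 0.480). Kcnn3 had 0.30 (SE 0.204) and Nos3 -0.03 (SE 0.252). Without 1 library at a time, Kcnn3 ran from 0.11 (without WT 3) to 0.43 (without KO 2) and Pde5a from 0.16 (without KO 2) to 0.38 (without WT 2). Intervals of 1.96 SE ran from -0.53 to 0.46 for Nos3 and from -0.60 to -0.07 for Ptgis. Such an interval gives the spread around the estimate and is not a limit of detection. With the factor of 1.96 it can leave out 0 without an unadjusted p under 0.05. Gucy1a1, with 0.015 to 0.52 and an unadjusted edgeR p of 0.0665, was such a case.

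Between Y198F mutants and their controls 4 of the 10 genes passed: Nos3, Kcnn4 and Ptgis were higher and Kcnn3 was lower in the mutants. Of all 16050 genes tested, 15.0% passed in this comparison, 9.55% higher and 5.48% lower. Nos3 had 7126 ± 1001 normalized counts (SD, n = 3) in the mutants against 4658 ± 717 in the controls, a 1.54-fold level (log2 fold change 0.62, SE 0.141, edgeR adjusted p = 0.0135). Kcnn4 had 793 ± 52.0 against 509 ± 71.5, a 1.57-fold level (0.65, SE 0.128, adjusted p = 0.00707). Ptgis had 8889 ± 363 against 6000 ± 555, a 1.49-fold level (0.57, SE 0.113, adjusted p = 0.00670). Kcnn3 had 816 ± 50.6 against 1204 ± 137, a 0.682-fold level (-0.55, SE 0.112, adjusted p = 0.00776). These 4 genes were also the 4 whose groups did not overlap, against 34.3% of all genes tested. Prkg1 had a log2 fold change of -0.43 and missed the threshold (SE 0.139, adjusted p = 0.0583). It passed without Y198F control 2 (-0.55, adjusted p = 0.0297) and without Y198F mutant 2 (-0.56, adjusted p = 0.0384). With every library it passed with no filter on low counts (adjusted p = 0.00324), in DESeq2 (0.0227) and in voom (0.0474). It did not pass with all 8 groups in 1 edgeR fit, with or without a term for the 22 series. Nor did it pass against the S205A controls of that series. DESeq2 over all groups gave -0.44 (adjusted p = 0.251). The remaining members, Ptgs1, Gucy1b1, Pde5a, Gucy1a1 and Cav1, had log2 fold changes between -0.13 and 0.16 and did not pass.

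**Figure D2:**
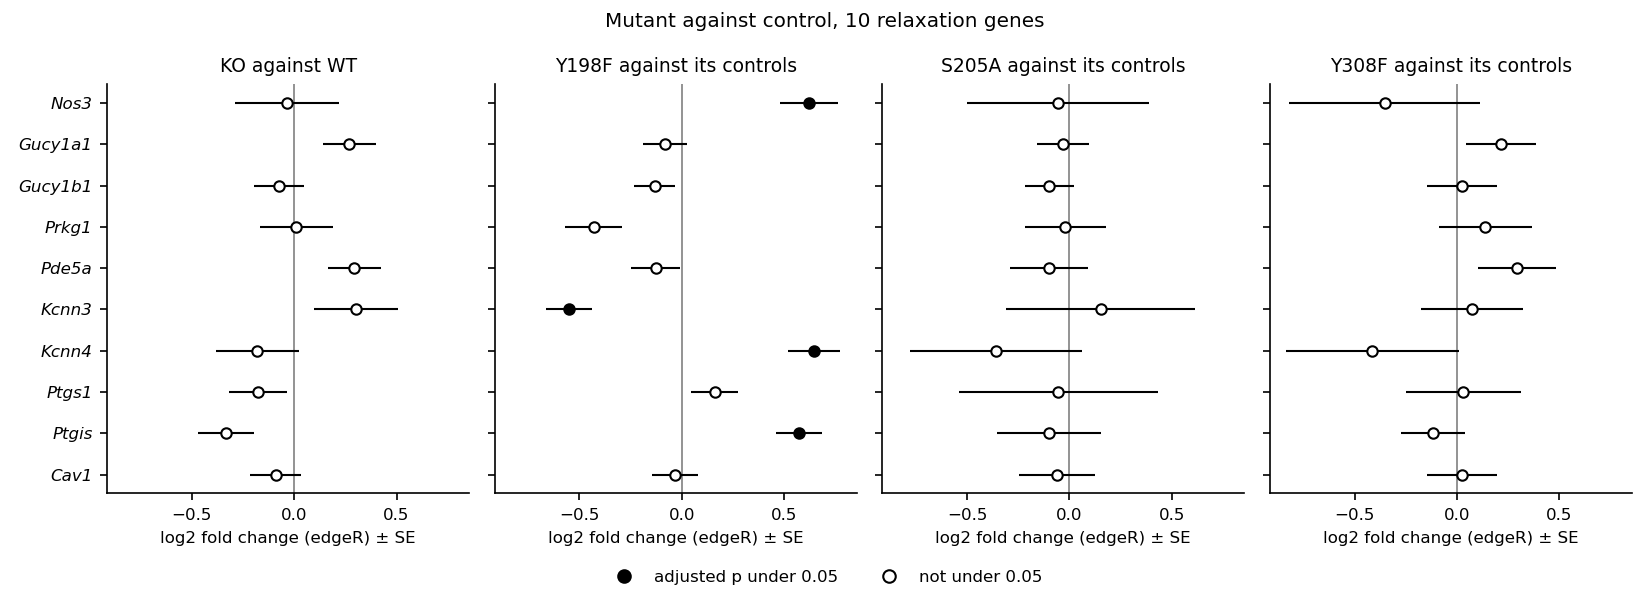
Log2 fold change of mutants over controls for the 10 genes in the 4 comparisons, as points with bars of 1 SE from the edgeR fit of each pair of groups, filled where the adjusted p is under 0.05. The 4 filled points all belong to Y198F, and the bars of Nos3 and Kcnn4 are wider in S205A and Y308F than in KO and Y198F.

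The Y198F differences are those of the 22 series as much as of the mutation, and marker levels of several cell types differed between the same libraries. Summed endothelial markers were 5769 to 6198 CPM in the mutants and 4318 to 5436 CPM in the controls, with 3 of the 10 markers called higher, none lower and none at 0. Smooth muscle markers gave 26784 to 36048 CPM against 28362 to 33537, with 2 of 10 called higher and 1 lower. Fibroblast markers gave 2467 to 3522 CPM against 3577 to 4546, and Schwann cell markers 84.4 to 97.8 against 106.0 to 184, with none at a median count of 0; of the fibroblast list 0 of 8 were called, and the part of either list in the result was not tested. Median log2 fold changes of the lists were 0.18 for endothelium, 0.27 for smooth muscle, -0.72 for fibroblasts, -0.95 for lymphatic endothelium, 0.88 for adipocytes, -0.53 for macrophages, 0.75 for lymphoid cells (3 of 8 markers tested) and -0.30 for platelets (3 of 5 tested). Against the S205A controls of the 22 series, the medians were 0.12 for endothelium, -0.23 for smooth muscle, 0.86 for fibroblasts, 0.92 for lymphatic endothelium, 1.459 for adipocytes, 0.40 for macrophages, 0.95 for lymphoid cells and 0.14 for platelets. The sign thus turned for smooth muscle, fibroblasts, lymphatic endothelium, macrophages and platelets. Lymphatic markers summed to 56.7 to 118 CPM against 116 to 268 in the controls, adipocyte markers to 553 to 2251 against 729 to 838, and macrophage markers to 8.42 to 44.6 against 8.40 to 59.7. No marker of these 3 lists was called (0 of 6, 0 of 8 and 0 of 6) or at a median count of 0, and their part in the result was not tested. In bulk arteries, fewer cells of a type and less RNA per cell cannot be told apart. With the endothelial marker level as a term in the fit, Nos3 (0.84, edgeR adjusted p = 0.0181) and Kcnn4 (0.70, adjusted p = 0.0377) passed, and Ptgis (0.51, adjusted p = 0.0733) and Kcnn3 (-0.57, adjusted p = 0.0570) did not. Against the 3 S205A controls that are in the 22 series, none of the 10 passed. Log2 fold changes were then 0.04 (SE 0.627) for Nos3, -0.33 (SE 0.576) for Kcnn4, -0.25 (SE 0.152) for Ptgis and 0.02 (SE 0.611) for Kcnn3. The values for Nos3, Kcnn4 and Kcnn3 hung on S205A controls 1 and 2: without control 1 the values were -0.40 for Nos3, -0.75 for Kcnn4 and -0.42 for Kcnn3, and without control 2 they were 0.76, 0.39 and 0.70. The Ptgis groups overlapped in this set, since the mutant with 9270.2 normalized counts lay above the control with 9097. With all 8 groups and a term for the series in 1 fit, the log2 fold changes were 0.37 for Nos3, 0.23 for Kcnn4, -0.07 for Ptgis and 0.03 for Kcnn3, and none passed. Leaving out Y198F control 3 from the comparison with the labelled controls left Kcnn4 alone past the threshold (adjusted p = 0.0386), with adjusted p-values of 0.0574 for Ptgis, 0.0577 for Kcnn3 and 0.0698 for Nos3. In 1 fit of all 8 groups without the series term none passed, with Ptgis at 0.58 (adjusted p = 0.101) and Nos3 at 0.63 (adjusted p = 0.472).

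**Figure D3:**
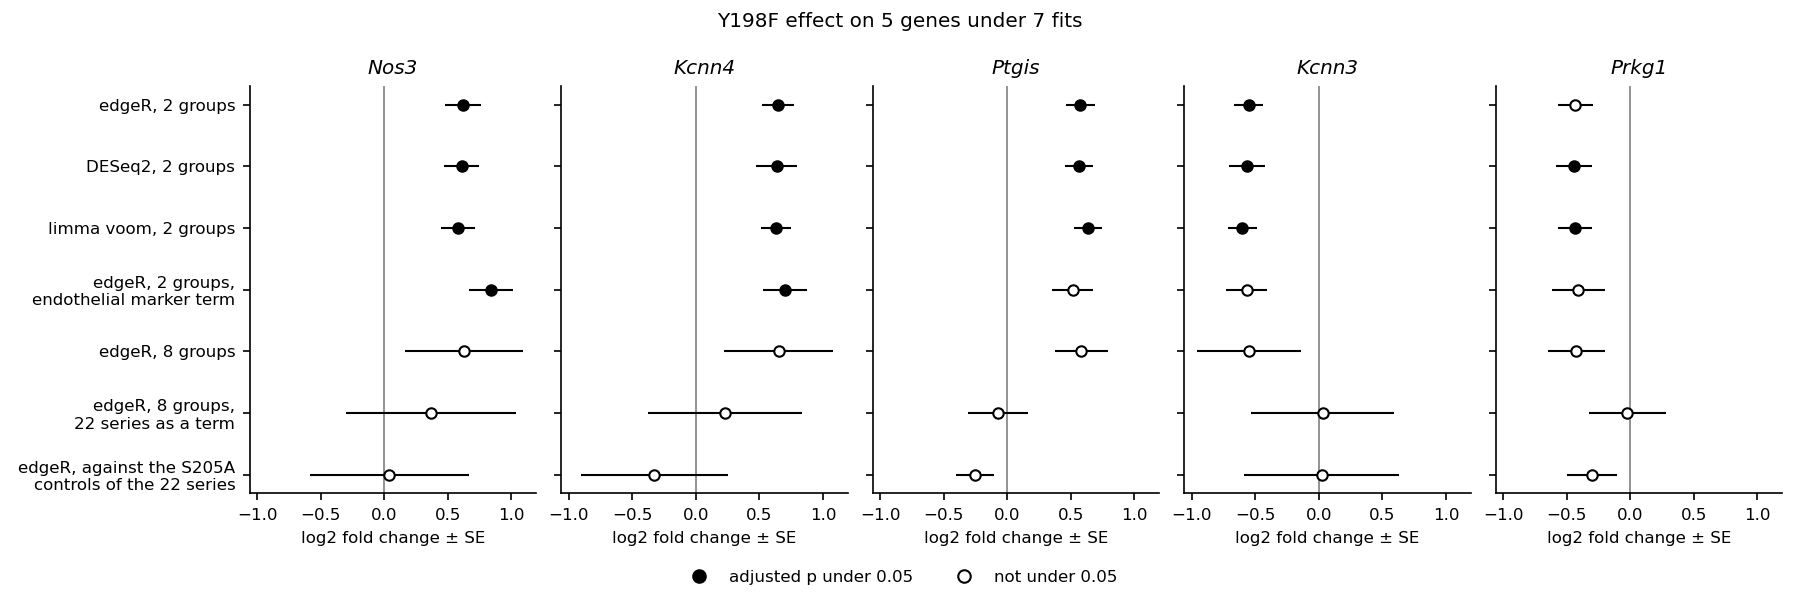
Log2 fold change of the Y198F mutants for Nos3, Kcnn4, Ptgis, Kcnn3 and Prkg1 under 7 fits, as points with bars of 1 SE, filled where the adjusted p is under 0.05; the upper 6 fits use the labelled controls and the lowest the S205A controls of the 22 series. Ptgis moves from 0.57 in the uppermost fit to -0.25 in the lowest.

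The S205A comparison called none of the 10 genes and 0.0% of 15709 genes tested, with 451 genes at an unadjusted p under 0.05 and 40 called by DESeq2. Log2 fold changes of the members ran from -0.36 for Kcnn4 (SE 0.421) to 0.15 for Kcnn3 (SE 0.463), with edgeR adjusted p = 1.00 for all. The groups of every member overlapped, against 1.76% of all genes tested that did not, and exact permutation p-values between 4 and 4 libraries, which can reach 0.0286, ran from 0.429 to 1. Directions for the endothelial genes hung on 2 controls. Without S205A control 1 the log2 fold change was -0.37 for Nos3, -0.17 for Kcnn3, -0.65 for Kcnn4 and -0.39 for Ptgs1. Without S205A control 2 the values were 0.39, 0.41, 0.15 and 0.28. The summed endothelial markers of these libraries, 1404 and 11159 CPM, are the lowest and highest of the series.

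The Y308F comparison called none of the 10 genes and 0.0% of 16037 genes tested, with 706 at an unadjusted p under 0.05. Members had log2 fold changes from -0.41 for Kcnn4 (SE 0.422) to 0.29 for Pde5a (SE 0.190), with edgeR adjusted p-values of 0.940 to 0.991. No member's groups were apart, against 10.7% of all genes tested. Nos3 had -0.35 (SE 0.466), an interval of 1.96 SE from -1.27 to 0.56. Without Y308F control 1, the library with 11073 CPM of endothelial markers, Nos3 had 0.29 (SE 0.315), Kcnn4 0.08 and Kcnn3 0.44 (SE 0.136, adjusted p = 0.641).

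Whether a gene differed between mutations was tested in fits of 4 groups. The response to KO minus that to Y198F was called for Ptgis (log2 difference -0.91, SE 0.172, edgeR adjusted p = 0.00446), Kcnn3 (0.86, SE 0.244, adjusted p = 0.0381) and Kcnn4 (-0.83, SE 0.250, adjusted p = 0.0458), against 11.6% of all genes tested. Ptgis was lower in KO than in WT and higher in Y198F mutants than in their controls. It stayed past the threshold in each of the 12 fits that leave out 1 library, Kcnn3 in 5 of them and Kcnn4 in 2. Kcnn3 lost the call without KO 1 or 3, Y198F control 1 or 3, or any Y198F mutant, and kept it without any 1 WT library. Kcnn4 kept the call without KO 1 and without WT 3. None of the 3 passed with all 8 groups in the fit (Ptgis -0.94, adjusted p = 0.0887). Y198F minus Y308F was called for Ptgis (0.69, SE 0.188, adjusted p = 0.0456), against 5.7% of all genes, and in 2 of the 12 fits that leave out a library. Without Y308F control 1, Kcnn3 passed in that comparison (-1.004, adjusted p = 0.00587), against -0.63 (adjusted p = 0.223) with every library. The differences that contain Y198F hold the library series as well. None of the 10 genes was called for KO minus S205A (0.00562% of all genes), KO minus Y308F (0.0116%), Y198F minus S205A (0.0%) or S205A minus Y308F (0.0%).

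Within the S205A line, where both groups have libraries of both kinds, the 22 series could be compared with the other libraries beside the mutation. None of the 10 genes passed, against 5.74% of all genes tested. By size Ptgis came first, with a log2 difference of 0.65 (SE 0.226, edgeR adjusted p = 0.135), then Kcnn3 with -0.58 (SE 0.537, adjusted p = 0.610), Kcnn4 with 0.42 (SE 0.533, adjusted p = 0.718) and Prkg1 with -0.40 (SE 0.182, adjusted p = 0.243). Prkg1 passed without S205A control 1 (adjusted p = 0.0343) and with the endothelial marker term (-0.49, adjusted p = 0.0134), and Ptgis passed with all 8 groups in 1 fit (0.65, adjusted p = 0.0146). Without 1 library at a time, Kcnn3 ran from -0.92 to -0.35 and Kcnn4 from 0.064 to 0.62, the ends being set by S205A controls 1 and 2, so their place in this order rests on those libraries. Ratios between members do not depend on library size. Kcnn3 to Nos3, on normalized counts, was 0.101 to 0.147 (median 0.122) in the 9 libraries of the 22 series and 0.167 to 0.398 (median 0.257) in the other 17, with no overlap. Among all genes, 0.658% had a ratio to Nos3 that set the 9 libraries fully apart from the 17. Kcnn3 to Kcnn4 was 0.686 to 1.31 in the 22 series and 1.49 to 3.53 in the others, and 0.534% of genes were set apart by their ratio to Kcnn4. Both channel ratios were looked at after the values of the Y198F line were known. The ratio of Kcnn4 to Nos3 overlapped, with 0.0963 to 0.167 against 0.0897 to 0.173. Ptgis to Gucy1b1 ran from 2.77 to 4.36 in the 22 series and from 1.78 to 3.01 in the others, with overlap, as 2.29% of genes were set apart by their ratio to Gucy1b1 and Ptgis was not. In the S205A line alone, Kcnn3 to Nos3 was 0.113 to 0.147 in 6 libraries of the 22 series and 0.203 to 0.247 in the 2 others, a log2 difference of -0.84. The exact permutation p was 0.0625, the smallest this design can give. In that line Kcnn3 to Kcnn4, Prkg1 to Gucy1b1 and Ptgis to Gucy1b1 had the same exact permutation p. The value was therefore not particular to Kcnn3 to Nos3. The exact permutation p was 0.1875 for Kcnn4 to Nos3, and the exact permutation p was 0.9375 for Gucy1a1 to Gucy1b1.

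**Figure D4:**
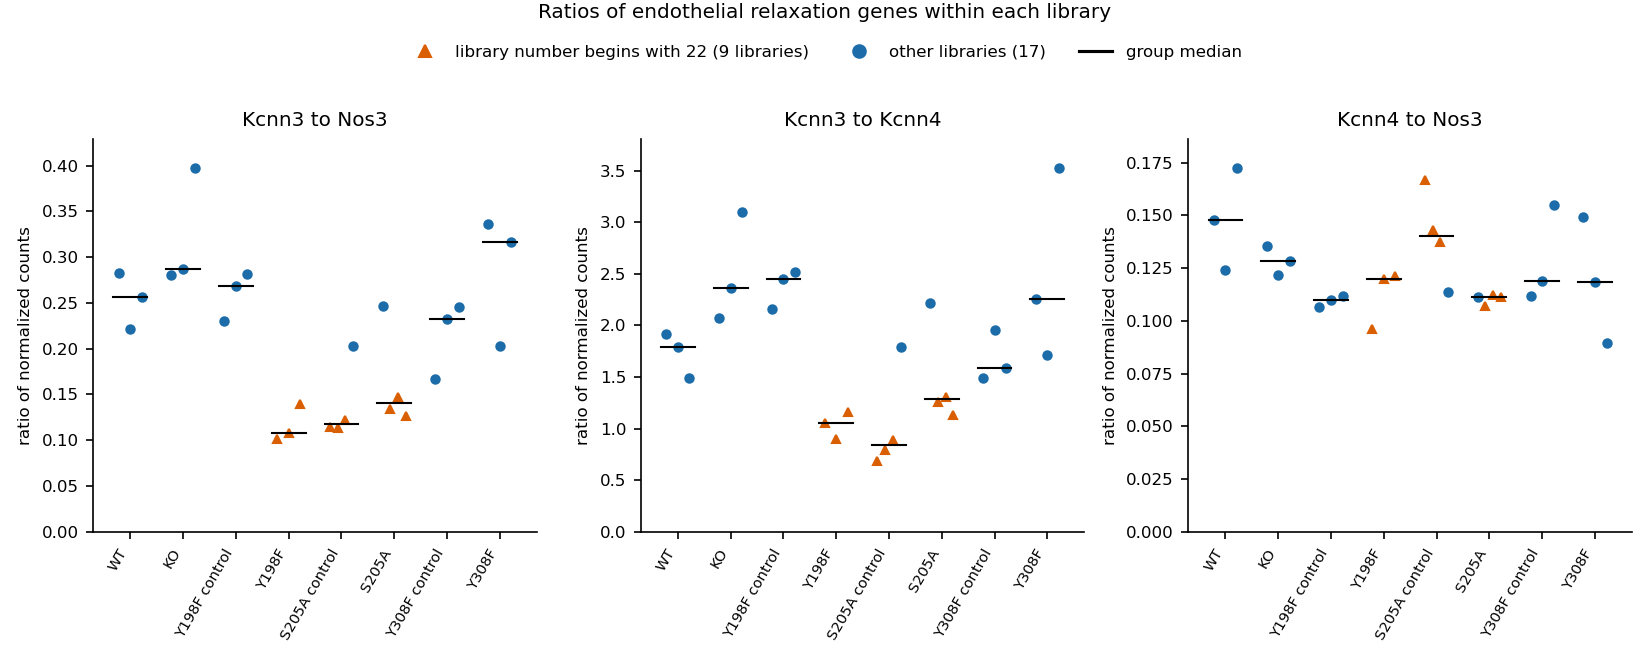
Ratios of normalized counts (axes from 0) between pairs of members in each library by group, with triangles for the 9 libraries of the 22 series, circles for the 17 others and lines at the group medians. Kcnn3 to Nos3 and Kcnn3 to Kcnn4 leave a gap between triangles and circles, while Kcnn4 to Nos3 overlaps.

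Outside the 22 series, Nos3 levels went with those of the channels across libraries. Pearson r was 0.817 with Kcnn3 (n = 17, permutation p = 0.00012, adjusted over 10 tests 0.00060; Spearman rho 0.534, permutation p = 0.0292, adjusted 0.0730) and 0.585 without the 2 libraries farthest from the median of Nos3. With Kcnn4 r was 0.885 (permutation p = 6.0e-05, adjusted 0.00060; rho 0.767, permutation p = 0.00052, adjusted 0.0052) and 0.624 without those 2. With Cav1 r was 0.718 (permutation p = 0.00264, adjusted 0.00660; rho 0.544, permutation p = 0.0259, adjusted 0.0730) and 0.312 without those 2. Within the 22 series r was 0.971 for Kcnn3, 0.945 for Kcnn4 and 0.914 for Cav1 (n = 9, exact permutation p = 0.0154, 0.0167 and 0.0252), with rho of 0.467, 0.633 and 0.283. There the relations rest on S205A controls 1 and 2, since r without the 2 farthest libraries was -0.09, -0.13 and -0.54.

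Members were also set against the endothelial marker score, the mean log2 CPM of the 10 markers. Outside the 22 series (n = 17), over 40 tests of members against the endothelial and smooth muscle scores, r was 0.851 for Nos3, 0.848 for Kcnn4, 0.846 for Ptgs1, 0.784 for Kcnn3 and 0.771 for Cav1, with permutation p-values adjusted to at most 0.00330. Spearman rho was 0.578, 0.593, 0.674, 0.620 and 0.532 in the same order, with adjusted permutation p-values of 0.0619, 0.0555, 0.0370, 0.0538 and 0.0830, so by rank Ptgs1 passed and the other 4 did not. In that order r without the 2 farthest libraries was 0.428, 0.441, 0.543, 0.486 and 0.425. Pde5a ran against the score with r = -0.75 (rho -0.62, r without 2 libraries -0.49, permutation p adjusted 0.00263 for r and 0.0538 for rho), and Ptgis had r = -0.05 (rho -0.12, permutation p = 0.841). Both cyclase subunits ran against it too, Gucy1a1 with r = -0.57 (rho -0.38, permutation p adjusted 0.0408 for r and 0.216 for rho) and Gucy1b1 with -0.60 (rho -0.42, adjusted 0.0264 and 0.161), and they had -0.21 and -0.075 without 2 libraries. Within the 22 series (n = 9) they had r = -0.87 and -0.84 (rho -0.73 and -0.60), with exact permutation p adjusted to 0.0217 and 0.0459 for r and 0.0830 and 0.161 for rho, and -0.54 and -0.45 without the 2 farthest libraries. Prkg1 had r = -0.45 outside the series (rho -0.31, adjusted permutation p = 0.0959, and -0.013 without 2 libraries). Within the series it had -0.81 (adjusted exact permutation p = 0.0443, rho -0.62, and -0.40 without 2 libraries). Pde5a had -0.75 there (rho -0.43, adjusted exact permutation p = 0.0747, and -0.11 without 2 libraries). Ptgis had -0.53 there (rho -0.50, adjusted exact permutation p = 0.231, and -0.68 without 2 libraries). Within the 22 series (n = 9) Ptgs1 had r = 0.966 (rho 0.833, exact permutation p = 0.00121, adjusted 0.00539) and 0.703 without the 2 farthest libraries, and Cav1 0.935 (rho 0.717, exact permutation p = 0.00172, adjusted 0.00625) and 0.658. By rank their adjusted exact permutation p-values were 0.0538 and 0.0922. For Nos3, Kcnn4 and Kcnn3 in the 22 series, r was 0.911, 0.841 and 0.925 and changed to -0.21, -0.33 and 0.028 without the 2 farthest libraries, so these relations rest on them. With the smooth muscle score Gucy1b1 had r = 0.838 outside the 22 series (n = 17, rho 0.836, permutation p = 8.0e-05, adjusted 0.0016) and 0.776 without 2 libraries. Within the series it had r = 0.886 (n = 9, rho 0.817, exact permutation p = 0.00272, adjusted 0.00838) and 0.675. Outside the 22 series its partner Gucy1a1 had r = 0.395 with that score (n = 17, rho 0.363, permutation p = 0.118, adjusted 0.148), Prkg1 0.725 (rho 0.777, adjusted permutation p = 0.00592) and Pde5a 0.365 (rho 0.311, adjusted permutation p = 0.175). Within the 22 series Gucy1a1 had r = 0.838 (n = 9, rho 0.667, exact permutation p = 0.00746, adjusted 0.0175 for r and 0.130 for rho) and 0.550 without 2 libraries, so both subunits had a positive r there. Prkg1 had 0.892 (rho 0.750, exact permutation p adjusted 0.00838) and Pde5a 0.845 (rho 0.633, exact permutation p adjusted 0.0175) in those 9 libraries, and 0.622 and 0.632 without 2 of them. Ptgis had r = 0.660 with the smooth muscle score outside the series (rho 0.593, permutation p adjusted 0.0122 for r and 0.0555 for rho) and 0.750 within it (rho 0.683, exact permutation p adjusted 0.0443 for r and 0.118 for rho), and 0.649 and 0.519 without 2 libraries. In the 22 series Ptgs1 ran against that score, with r = -0.86 (-0.86 without 2 libraries) and rho -0.95. Its exact permutation p was adjusted to 0.0016 for r and 0.0056 for rho. Cav1, Kcnn3, Nos3 and Kcnn4 had r = -0.82, -0.80, -0.76 and -0.74 there (exact permutation p adjusted 0.0187, 0.0169, 0.0412 and 0.0443). By rank these did not pass (adjusted 0.161, 0.0830, 0.258 and 0.514). Outside the series these and Ptgs1 had r from -0.37 to -0.17 (adjusted permutation p of at least 0.168).

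**Figure D5:**
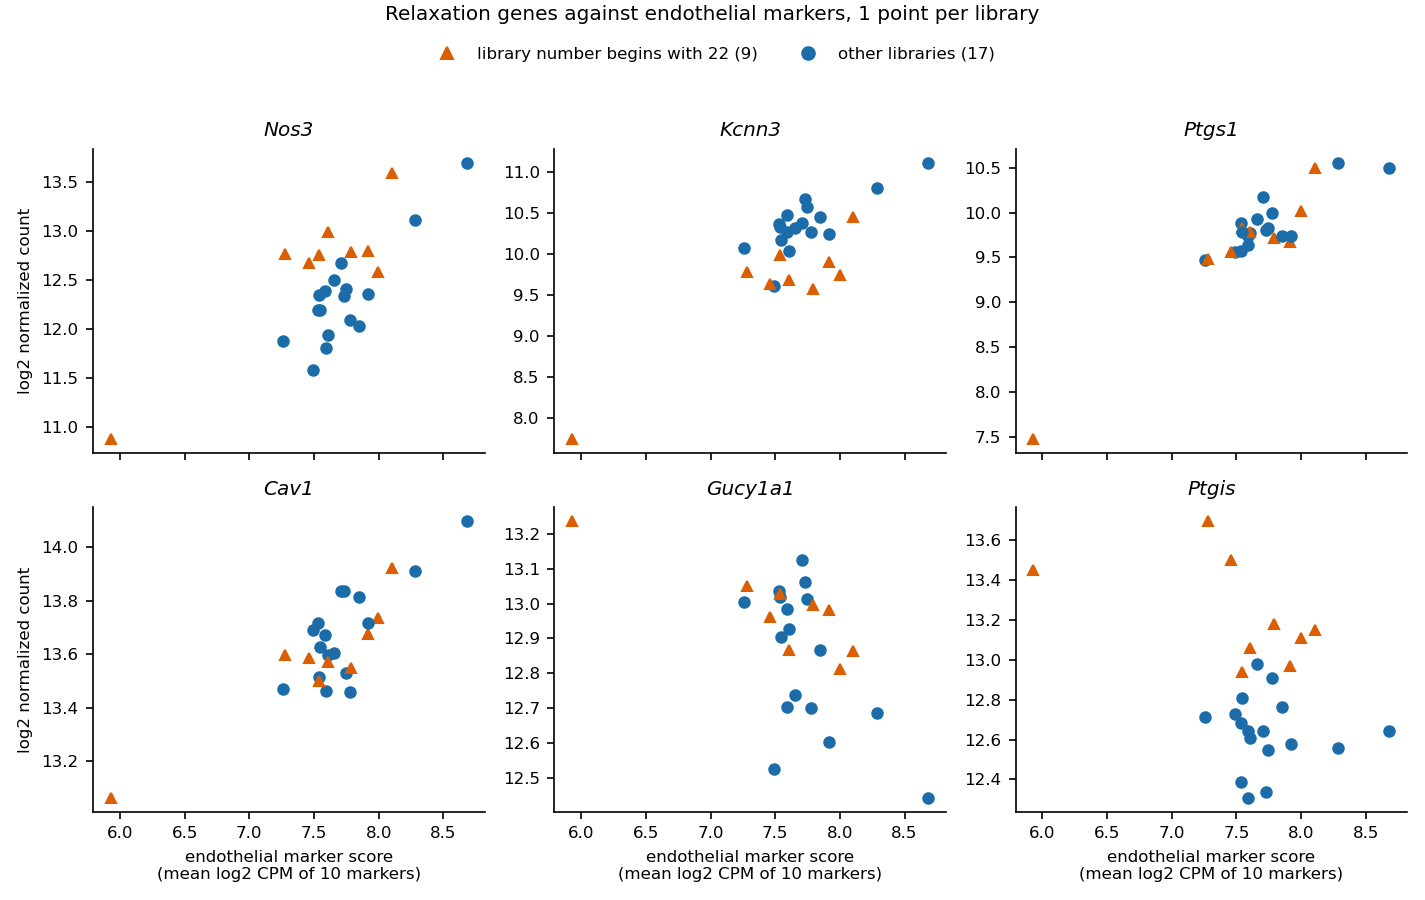
Log2 normalized count of Nos3, Kcnn3, Ptgs1, Cav1, Gucy1a1 and Ptgis against the endothelial marker score (mean log2 CPM of 10 markers), 1 point per library, with triangles for the 22 series and circles for the others. S205A control 1 lies alone at a score of 5.93 and Y308F control 1 at 8.68, and the other 24 libraries lie between 7.26 and 8.28.

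Of the other genes of these routes, 97 in 6 lists, 8 of 87 tested were called higher and 1 lower in Y198F, and none of 88 in KO, 85 in S205A or 88 in Y308F. These shares stand beside the 9.55% and 5.48% of all genes. Among genes that supply nitric oxide synthesis 2 of 17 were higher, Spr (0.47, edgeR adjusted p = 0.0172), which makes the cofactor tetrahydrobiopterin, and Akt1 (0.36, adjusted p = 0.0428), a kinase that activates the synthase. The list's median was -0.07, against 0.00 for all genes. In cyclic GMP signalling 1 of 18 was higher, the phosphodiesterase Pde1b (0.50, adjusted p = 0.0298), with a list median of -0.13. Hyperpolarization genes gave 2 higher and 1 lower of 16: Gja4, connexin 37 of endothelial gap junctions, had 8173 ± 307.8 normalized counts against 4178 ± 573 (SD, n = 3; 0.98, adjusted p = 0.000586), the calcium channel Trpv4 rose (0.63, adjusted p = 0.0429) and the calmodulin gene Calm2 fell (-0.45, adjusted p = 0.0210). The prostanoid list had 1 higher of 16, the thromboxane receptor Tbxa2r (0.74, adjusted p = 0.00941), the caveolar list 1 of 7, Cavin3 (0.50, adjusted p = 0.00923), and the receptors 1 of 13, Ramp2 (0.77, adjusted p = 0.00173), a partner of the adrenomedullin receptor. Against the S205A controls of the 22 series all 9 had an adjusted p of 1.00, with log2 fold changes from -0.23 to 0.09. With all 8 groups and a term for the series, they ran from -0.34 for Tbxa2r to 0.31 for Pde1b, and none passed. The sign differed between these fits for Akt1, Trpv4 (-0.23 and 0.20), Gja4 and Ramp2.

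In the comparisons without a called list gene, the gene of smallest p in each list did not pass either. For KO these were Gch1 (-0.60), which opens tetrahydrobiopterin synthesis, Kcnma1 (0.35), the large-conductance potassium channel, Kcnj2 (0.81), an inward rectifier, Ptgs2 (0.80), cyclooxygenase 2, Cavin3 (-0.36) and Ramp2 (-0.58). Their adjusted p-values ran from 0.281 to 0.503. Y308F gave Nosip (-0.30), Gucy1a2 (0.71), Kcnn1 (-0.86), Pla2g4a (0.43), Cavin3 (-0.24) and P2ry1 (0.56), and S205A gave Ddah2 (0.16), Pde9a (0.83), Gja1 (0.82), Ptges (1.49), Pacsin2 (-0.09) and Adm (2.34). Adjusted p-values were at least 0.940 in both.

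For each member the 3 protein-coding genes most like it were found by Pearson r of log2 CPM over the 17 libraries outside the 22 series, among 11812 genes, with r over the 9 others beside it. Nos3 was followed by Trpv4 (0.964 and 0.984), Plec (0.961 and 0.660) and Ripor1 (0.957 and 0.779). Kcnn4 had Tamalin (0.958 and 0.933), Tie1 (0.946 and 0.965), an endothelial receptor, and Cmip (0.944 and 0.952). Kcnn3 had Tanc2 (0.906 and 0.944), Madd (0.896 and 0.929) and Slc22a15 (0.890 and 0.721). The second r includes S205A controls 1 and 2, and was not computed without them. Gucy1a1 went with Abi2 (0.916 and 0.641), Cdh6 (0.909 and 0.666) and Kcnma1 (0.907 and 0.899), and Gucy1b1 with Septin7 (0.953 and 0.667), Dtna (0.951 and 0.848) and Prkar1a (0.949 and 0.853). Prkg1 went with Atp2a2 (0.946 and 0.933), the calcium pump of the sarcoplasmic reticulum, Ppm1e (0.944 and 0.914) and Map3k20 (0.942 and 0.958). Pde5a had Rbms3 (0.943 and 0.208), Cacna2d1 (0.943 and 0.840) and Unc5c (0.922 and 0.837). Ptgis had Psmb5 (0.879 and 0.253), Cops6 (0.860 and -0.36) and Glyr1 (0.859 and 0.431), all with a far lower r in the second set. Ptgs1 had Gatad2a (0.926 and 0.840), Dock6 (0.892 and 0.855) and Ppp1r13b (0.885 and 0.927), and Cav1 had Dram1 (0.932 and 0.956), Efna5 (0.897 and 0.963) and Lman2 (0.881 and 0.854). These are correlations over few libraries of 1 tissue, and are given as a description.

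The authors' deposited tables of fold changes listed all 10 genes for each of the 4 mutants, and none had an adjusted p under 0.05. The lowest was 0.572 for KO, 0.759 for Y198F and 1.0 for the other mutants. For Y198F the authors' deposited table gave log2 fold changes of 0.06 for Nos3, -0.20 for Kcnn3, -0.23 for Kcnn4 and -0.11 for Ptgis, unlike the values against the labelled controls above. Recomputed from the deposited counts, the fold changes of that table matched a comparison with the S205A controls in 18991 genes to within 0.000160, and differed from one with the labelled Y198F controls by a median of 0.270 and by up to 7.51. Fitted with DESeq2 over all groups against the labelled controls, Nos3 had 0.61 (SE 0.460, adjusted p = 0.462), Kcnn4 0.64 (adjusted p = 0.333), Ptgis 0.57 (adjusted p = 0.0799) and Kcnn3 -0.56 (adjusted p = 0.390).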

How the data were processed

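RNA of mouse mesenteric arteries was sequenced as paired reads of 150 bases, per the labels. Per the submitters' processing notes, reads were aligned with STAR 2.7.9a to GRCm39, counted with featureCounts and compared with DESeq2 1.46.0. The deposited counts are whole reads per gene (57010 gene IDs, 56310 matched to the annotation, 0.0433% of counts unmatched). The authors' normalized signal equals those counts divided by 1 size factor per library, for genes with a total above 50. The authors' comparison tables hold log2 fold changes, p-values and a test score. The strand setting of the counting is not given in the sources used here.

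The main test was edgeR 4.0.16 (quasi-likelihood, TMM scaling, filterByExpr, R 4.3.3), fitted on the groups compared, with Benjamini-Hochberg adjustment over all genes at 0.05. Alternatives used DESeq2 1.42.0, limma 3.58.1 (voom), other scaling, filters, groups and terms, and left out each library. Scripts were tested on simulated data. All 30 pairs of replicate libraries differed beyond sampling noise (chi-square per degree of freedom 15.0 to 159). The members and gene lists were chosen with earlier results of these data known. Named genes are the members, Panx1, list genes past the threshold (or the 1 of smallest p per list) and the 3 genes most like each member. Python 3.11.15, pandas 2.3.3 and scipy 1.17.1 gave correlations (100000 resamples, or exact for 9 libraries). Total counts of 14895969 to 23617902 per library gave every member at least 185 counts.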

Additional observations from a re-analysis of the deposited data

Results flagged for a closer look

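Nos3 in the S205A mutants had 1 library far from the others: mutant 1 (5212 normalized counts) lay below mutants 2 to 4 (6925 to 7129), a gap of 0.893 of the group's range. Kcnn4 in the same group had 581 in mutant 1 against 763 to 779.8, a gap of 0.913 of the range. The critical value for 4 libraries is 0.829, and chance alone passes it in about 1 in 20 groups; of the 20 tested (10 genes in 2 groups of 4 libraries), 2 passed. Mutant 1 is the 1 mutant of that line outside the 22 series.

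The response of Ptgis differed between KO and Y198F by -0.91, that of Kcnn3 by 0.86 and that of Kcnn4 by -0.83 on the log2 scale, each by the test of the difference in edgeR. Ptgis differed between Y198F and Y308F by 0.69. These differences hold the 22 series as well as the Y198F mutation, and the 2 cannot be told apart in them.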

How the results depend on the processing

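Of the members' fold changes in the 4 comparisons and the series contrast, with the 4 called differences between mutations, under the alternatives that keep every library, 301 kept their direction and their side of the threshold, 17 lost it, 5 gained it and 25 changed sign. Over the fits that leave out 1 library, these counts were 312, 30, 3 and 43. Differences between mutations not called with every library, such as Kcnn3 in Y198F minus Y308F, are outside these counts. The gained calls were those of Prkg1 in Y198F (with no filter, DESeq2 and voom) and, in the series contrast, of Prkg1 (endothelial marker term) and Ptgis (all 8 groups). Without 1 library they were those of Prkg1 in these 2 contrasts.

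The count of genes called for KO was 5, and 243 with no filter on low counts, 107 with DESeq2, 18 with the replicate block, 3 with voom and 3 with the endothelial marker term. For Y198F it was 2411, and 1248 with the endothelial marker term, 922 with all 8 groups, and 0 with the series term or against the S205A controls of the 22 series. S205A had 0 calls, and 40 with DESeq2; Y308F had 0, and 7 with no filter. The 22 series gave 902 calls in the S205A line, 1907 with the endothelial term and 2189 with all 8 groups. With all 8 groups, and with the series term as well, KO minus Y198F went from 2004 calls to 108 and 3, KO minus S205A from 1 to 2 and 3, and Y198F minus Y308F from 979 to 0 and 0; Y198F minus S205A went from 0 to 3. Without 1 library the counts ran from 1 to 5 for KO, 908 to 2128 for Y198F, 0 to 1 for S205A and for Y308F, 70 to 1174 for the series, 1043 to 2024 for KO minus Y198F and 320.0 to 1227 for Y198F minus Y308F. The cause of these shifts was not tested. In the last set each fit changes both the number of libraries and which ones are present.

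Replicate numbers did not pair the libraries, since the correlation of deviations of same-numbered libraries ran from -0.28 to 0.23. With the replicate block the same 4 members passed in Y198F (adjusted p = 0.0148 to 0.0235), and 0 in the other comparisons.

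The sign turned, on the log2 scale, for 3 of the 4 members called in Y198F (Kcnn3, Kcnn4 and Ptgis) and for smaller fold changes elsewhere. In KO, Nos3 was 0.093 with the endothelial term, and Prkg1 -0.012 with all 8 groups and -0.0044 with voom. In Y198F, with the series term and against the S205A controls of the 22 series, Kcnn3 was 0.030 and 0.024, Ptgis -0.073 and -0.25, and Cav1 0.066 and 0.057. Kcnn4 was -0.33 against those controls, and Ptgs1 -0.0059 with the endothelial term. In S205A, Nos3 was 0.21 with the replicate block, 0.075 with voom and 0.022 in the 22 series alone. Ptgs1 was 0.22, 0.17 and 0.046 in the same settings, and Cav1 0.031 in the 22 series alone. Gucy1a1 was 0.028 with voom and 0.012 with the endothelial term, Prkg1 0.017 and 0.054, and Pde5a 0.033 with the latter. In Y308F Gucy1b1 was -0.0095, and in the series contrast -0.036, both with the endothelial term. The cause was not tested.

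Ranges over fits without 1 library in KO were -0.26 to 0.21 for Nos3, -0.18 to 0.038 for Gucy1b1 and -0.17 to 0.20 for Prkg1. In S205A they were -0.37 to 0.39 for Nos3, -0.10 to 0.040 for Gucy1a1, -0.17 to 0.10 for Prkg1, -0.22 to 0.10 for Pde5a, -0.17 to 0.41 for Kcnn3, -0.65 to 0.15 for Kcnn4, -0.35 to 0.023 for Ptgis, -0.39 to 0.28 for Ptgs1 and -0.21 to 0.039 for Cav1. In Y308F they were -0.71 to 0.29 for Nos3, -0.093 to 0.20 for Gucy1b1, -0.086 to 0.44 for Kcnn3, -0.79 to 0.077 for Kcnn4, -0.26 to 0.32 for Ptgs1 and -0.059 to 0.18 for Cav1. In the series contrast they were -0.11 to 0.49 for Nos3, -0.091 to 0.0048 for Gucy1a1, -0.071 to 0.082 for Gucy1b1 and -0.26 to 0.080 for Cav1. S205A controls 1 and 2 set the ends for Nos3, Kcnn3, Kcnn4 and Ptgs1 in S205A, and Y308F control 1 the upper end for Nos3 and both channels in Y308F. Correlations of Nos3 in the 22 series turned to -0.088 for Kcnn3, -0.13 for Kcnn4 and -0.54 for Cav1 without the 2 farthest libraries.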
